A study of Mus musculus with 5 samples.

Results

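The genes described here are the mouse solute carriers for inorganic ions, phosphate, sulfate and dicarboxylates, zinc and other divalent metals. They are all 78 genes of the 27998 in the deposited gene table whose symbols belong to the Slc4, Slc8, Slc9, Slc12, Slc13, Slc20, Slc26, Slc30, Slc34, Slc39 and Slc41 families, with Slc12a2 left out. The rule used symbols alone and no measured value, though it was set with earlier results of these data known. The study took C57BL/6 mice, 8 to 12 weeks old, isolated the epithelium of their ileum (distal small intestine) and profiled its cells by droplet single-cell RNA sequencing with the 10x Chromium 3′ v2 chemistry. Sham surgery gave 3 libraries and small bowel resection, which removes a length of small intestine, gave 2 libraries. Strain, age range and tissue were the same in both groups, and the labels gave no time after surgery. Nothing in the labels says whether a library came from 1 animal or from several pooled, so the p-values below measure only the spread between these libraries, which may be technical.

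Absorptive cells of the ileum take up sodium, chloride, phosphate, sulfate, dicarboxylates and metals across the brush border and pass part of them on across the basolateral membrane. Sodium-hydrogen exchangers (Slc9) and chloride-bicarbonate exchangers (Slc26) work side by side at the brush border, sodium bicarbonate cotransporters and anion exchangers (Slc4) load or extrude base, and potassium-chloride cotransporters (Slc12) let chloride out of the cell. Zinc is moved into the cytosol by the Slc39 (ZIP) family and out of it, or into vesicles, by the Slc30 (ZnT) family, so the pair sets cellular zinc. Slc34 and Slc20 carriers take up phosphate with sodium, and Slc41 carriers move magnesium.

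Library totals ran from 11749028 to 41281731 UMIs (unique molecular identifiers, the count of captured transcripts) over 1402 to 7233 cells. After filters and doublet removal 18235 of 19404 cells were kept, of which 11009 were enterocyte-like, 3429 immature enterocyte-like, 1029 Paneth-like, 994 cycling-like, 723 stem-like, 582 goblet-like and 441 T cell-like. These class names rest on marker genes; a tuft-like cluster of 28 cells was too small to use. Any pair of libraries shared 6 to 47 cell barcodes. Resection 1 stood apart: 29.2% of its enterocyte-like cells lay in a cluster led by Sgk1 and Pck1, against 0.262% to 1.20% in the other 4 libraries, and 19.7% lay in a cluster led by Lct, Apoa4 and Fabp1, against 0.190% to 2.62%. Slc13a2 and Slc13a1 were themselves among the leading genes of the Sgk1 cluster. Other enterocyte-like clusters were led by stress or host-defence genes (Ccl20 and Nos2; Areg, F3 and Edn1; Isg15). Paneth-like cells fell into clusters that were mostly of 1 library each (led by Gm21002 and Defa23 in sham 1, Nupr1 and Clps in sham 3, Mptx2 in resection 1, Ang4 and Clps in resection 2), apart from 1 led by AY761184 and Defa24 that held mainly sham 2 and resection 2 cells. The immature enterocyte-like class held a cluster of 2637 cells led by Gsdmc4 and Gsdmc2 and one of 792 cells led by Ms4a18, Car4 and Gsta1, while Reg3b and Reg3g, also on its marker list, were higher in enterocyte-like cells.

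Of the 78 carriers, 30 were well detected, meaning a mean of at least 10 CPM over the 5 libraries in the sum of all epithelial cells. CPM here is the UMI count scaled to a common library total. Slc30a6 lay just inside this limit at 10.7 CPM and Slc39a3 just outside it at 9.71 CPM. A further 32 were present below the limit, and 16 had no UMI, which over 113911832 epithelial UMIs allows up to 0.0263 CPM (3 counts, counting error only). The families were covered unevenly. The Slc39 zinc importers had 7 of 14 members well detected and the Slc30 zinc exporters 7 of 10, whereas all 3 Slc8 sodium-calcium exchangers had no UMI. Slc26 had 3 of 11 well detected, Slc4 3 of 10, Slc9 3 of 9, Slc12 2 of 8, Slc13 2 of 5, Slc34 1 of 3, Slc41 1 of 3 and Slc20 1 of 2. Slc9a3, the main sodium-hydrogen exchanger of the brush border in textbook accounts, had 34 UMIs in all, a mean of 0.310 CPM. Its low count was not looked into further, since 3′ tag counts depend on where a transcript is annotated to end. Exons of Slc39a2 and Slc39a7, among others, overlap another gene on the same strand in the GENCODE M21 annotation (Mettl17 and Gm20427 for these), so their counts carry that uncertainty.

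The promoters of 5 members that later results turn on are given first. They are the 250 bases before the annotated start in RefSeq (GRCm38.p6), written on the gene's strand. Slc34a2 (chr5:53049103-53049352, plus strand), Slc13a2 (chr11:78422235-78422484, minus strand) and Slc30a10 (chr1:185454598-185454847, plus strand) rose together along enterocyte maturity, Slc26a3 (chr12:31437969-31438218, plus strand) fell, and Slc30a1 (chr1:191906531-191906780, plus strand) differed with surgery and maturity together. In the GENCODE annotation Slc34a2 and Slc26a3 begin further upstream, at chr5:53038081 and chr12:31390871. Their printed promoters therefore lie inside those gene spans. Capitals mark the motif matches listed after the sequences.
Slc34a2: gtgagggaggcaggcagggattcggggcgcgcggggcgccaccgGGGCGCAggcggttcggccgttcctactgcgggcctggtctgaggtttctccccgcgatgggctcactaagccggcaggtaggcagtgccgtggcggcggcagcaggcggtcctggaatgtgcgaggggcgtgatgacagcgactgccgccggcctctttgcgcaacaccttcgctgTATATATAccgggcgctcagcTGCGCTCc
Slc13a2: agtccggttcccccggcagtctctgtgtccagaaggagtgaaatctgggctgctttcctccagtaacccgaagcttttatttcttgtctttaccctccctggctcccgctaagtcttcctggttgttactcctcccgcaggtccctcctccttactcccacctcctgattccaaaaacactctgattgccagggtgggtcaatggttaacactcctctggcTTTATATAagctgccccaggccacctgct
Slc30a10: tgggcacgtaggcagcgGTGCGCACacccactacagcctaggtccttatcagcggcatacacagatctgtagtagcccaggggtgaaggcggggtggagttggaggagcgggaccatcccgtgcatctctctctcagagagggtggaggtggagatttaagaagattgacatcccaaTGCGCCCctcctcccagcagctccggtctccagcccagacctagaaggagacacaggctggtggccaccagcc
Slc26a3: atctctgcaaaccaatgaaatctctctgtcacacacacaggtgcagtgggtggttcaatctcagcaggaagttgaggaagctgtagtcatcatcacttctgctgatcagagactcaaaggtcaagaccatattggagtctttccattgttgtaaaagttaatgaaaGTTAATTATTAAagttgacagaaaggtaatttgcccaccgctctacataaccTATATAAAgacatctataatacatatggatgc
Slc30a1: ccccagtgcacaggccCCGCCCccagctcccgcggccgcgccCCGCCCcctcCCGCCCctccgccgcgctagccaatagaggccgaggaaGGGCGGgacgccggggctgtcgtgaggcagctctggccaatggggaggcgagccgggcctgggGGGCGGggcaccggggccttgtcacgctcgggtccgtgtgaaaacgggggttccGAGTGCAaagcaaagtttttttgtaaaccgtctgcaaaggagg
RefSeq gave a promoter for 61 of the 78 members and 23 of the 30 well-detected ones. Motifs were searched on both strands, and the shares in brackets are of all 32851 promoters of this length. The TATA spellings TATAAA (12.4%) and TATATA (5.25%) overlapped in Slc13a2 and Slc26a3, and Slc34a2 held TATATA alone. Among the 23, TATAAA was in 4 members and TATATA in 3. The palindromic site of the HNF1 factors of gut and liver (0.0609%, 20 promoters) was in Slc26a3 alone of the 23. The GC box GGGCGG (32.7%) was in 16 of the 23, Slc30a1 among them, and not in the other 4 printed. Cores of the metal response element were searched as TGCACNC (10.4%, 3 of the 23, Slc30a1 among them) and TGCGCNC (12.5%, 8 of the 23, Slc34a2 among them). Slc30a10, itself below the detection limit, held TGCGCNC 3 times, and 2 of these matches overlapped. CAAAGTC (3.84%) was in 2 of the 23 and TTTATG (10.8%) in 1, and none of the 5 promoters printed held either. The TATA and HNF1 letters were chosen after the sequences were seen. A match is a run of letters, not a bound site.

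In enterocyte-like cells the phosphate, sulfate and dicarboxylate carriers were plainly detected in every library. Slc34a2, the sodium-phosphate cotransporter of the brush border, was at 371, 348 and 172 CPM in sham 1, 2 and 3 and at 519 and 580 CPM in resection 1 and 2. Its lowest library was sham 3, and both resection libraries lay above all 3 sham libraries. Slc20a1, a phosphate carrier of most cells, averaged 11.2 CPM ± 3.49 (SD, n = 5). Slc13a2, which takes up citrate and other dicarboxylates with sodium, was at 268, 237 and 147 CPM in sham and at 388 and 186 CPM in resection, so the groups overlapped and resection 1 was the highest. Slc13a1, the sodium-sulfate cotransporter, was at 132, 224 and 282 CPM in sham and at 233 and 126 CPM in resection, again with overlap. The sulfate carrier Slc26a2 averaged 230 CPM ± 44.2 (SD, n = 5).

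Among the acid-base and chloride carriers, Slc26a6, an apical exchanger of chloride, oxalate and bicarbonate, was at 361, 311 and 274 CPM in sham and 437 and 319 CPM in resection. Slc26a3, the chloride-bicarbonate exchanger whose loss causes congenital chloride diarrhoea, was at 89.9, 120 and 87.3 CPM in sham and 90.0 and 87.7 CPM in resection. Both pairs of groups overlapped. The sodium bicarbonate cotransporters Slc4a4 and Slc4a7 averaged 104 CPM ± 11.4 and 13.8 CPM ± 6.84 (SD, n = 5), and the basolateral anion exchanger Slc4a2 averaged 35.7 CPM ± 4.56. The apical sodium-hydrogen exchanger Slc9a2 averaged 59.8 CPM ± 8.83, and Slc9a8, which acts in the Golgi and at the surface, averaged 13.6 CPM ± 5.67. These are tag counts, so differences between genes are not compared. The potassium-chloride cotransporter Slc12a7 averaged 53.3 CPM ± 20.6.

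Zinc carriers of both directions were present in enterocyte-like cells. Slc39a5, a basolateral zinc importer, was at 212, 198 and 195 CPM in sham and 165 and 159 CPM in resection, and both resection libraries lay below every sham library. Slc39a4, the apical zinc importer lost in acrodermatitis enteropathica, was at 96.7, 140 and 76.9 CPM in sham and 122 and 156 CPM in resection, with overlap. Slc30a1, the zinc exporter of the plasma membrane, was at 93.7, 74.9 and 73.1 CPM in sham and 59.2 and 68.5 CPM in resection, both below every sham library. Slc39a7, which releases zinc from the endoplasmic reticulum, averaged 36.5 CPM ± 11.3 (SD, n = 5), and the vesicle and Golgi loaders Slc30a4 and Slc30a5 averaged 55.9 CPM ± 10.6 and 45.9 CPM ± 10.4. The magnesium transporter Slc41a2 averaged 24.6 CPM ± 6.03.

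Transcripts of enterocytes were also found in droplets not classed as epithelial. T cell-like droplets had Apoa1 at 55.5% of its enterocyte-like level, Fabp2 at 51.6% and Alpi at 56.8%. The 30 well-detected carriers were there at 39.1% to 157% of their enterocyte-like level, with a median of 63.5%, and Slc34a2 was at 52.9%. Slc20a1 (157%), Slc9a8 (111%) and Slc39a7 (110%) were higher there than in enterocyte-like cells. Free RNA, doublets and expression by the T cells themselves cannot be told apart in these values, so the T cell-like level is given for comparison and not as a measured background. Of the 30, 27 exceeded it in enterocyte-like cells, 11 in immature enterocyte-like, 13 in Paneth-like, 10 in goblet-like, 4 in cycling-like cells and 3 among stem-like cells. These counts depend on how the classes were scaled, and no share of all genes is given beside them.

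**Figure D1:**
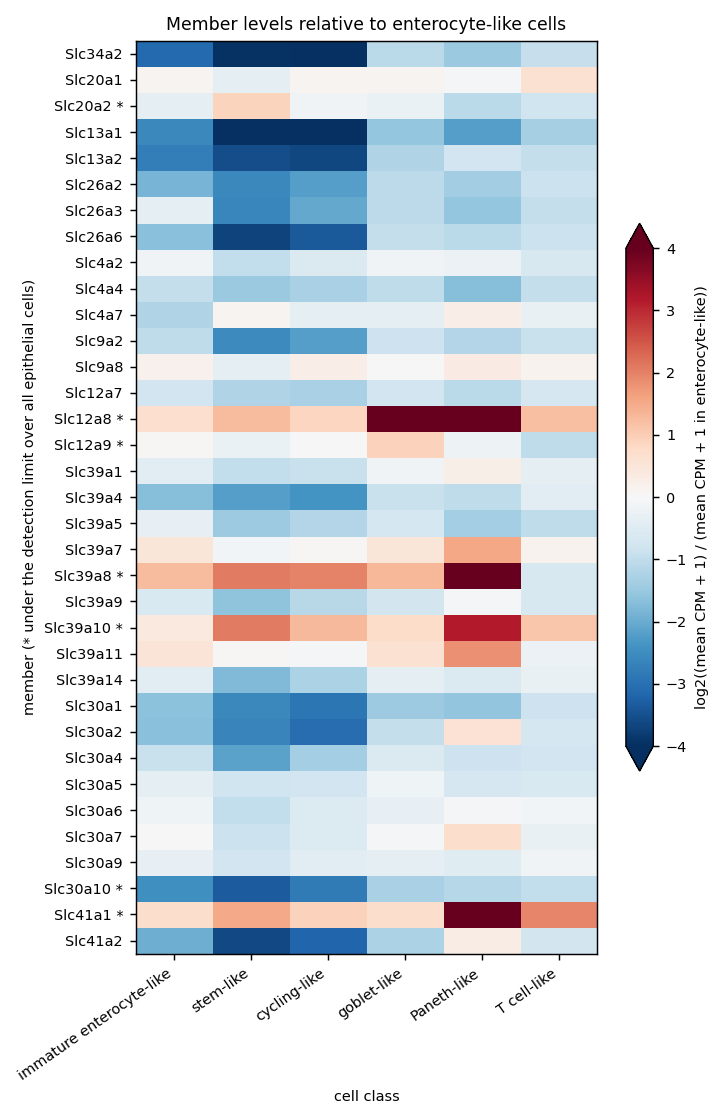
Levels of 28 of the 30 well-detected carriers and of 7 others (starred) in each cell class (columns), as log2 of the ratio of mean CPM + 1 over 5 libraries to that in enterocyte-like cells; red is higher, blue lower, and colours stop at 4 and -4. Blue prevails in the immature, stem-like and cycling-like columns, and Slc12a8, Slc41a1 and Slc39a8 are red in Paneth-like cells; the T cell-like column is shown for comparison.

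Most carriers tested were lower in the less mature classes, Slc34a2, Slc13a1 and Slc13a2 among them. Classes were compared within libraries by edgeR's quasi-likelihood test with Benjamini-Hochberg adjustment over all genes; the carriers and their partner genes were left out of the genes used to cluster, but the classes come from the same cells. In immature enterocyte-like cells 26 of 38 carriers tested were lower than in enterocyte-like cells and 4 were higher (all genes tested: 35.6% lower, 34.4% higher, 70% in either direction), and 29 were lower in each of the 5 libraries (38.9%) and 2 higher (27.4%). Their median log2 fold change was -0.46, against -0.01 over all genes. In stem-like cells 26 of 37 were lower and 2 higher (all genes 39.7% and 37.2%, 76.9% together; medians -1.15 and -0.06), with 28 lower in each library (43.6%) and 2 higher (28.1%). In cycling-like cells 26 of 37 were lower and 2 higher (41.3% and 36.4%, 77.7% together; medians -1.13 and -0.10), with 25 lower in each library (41.2%) and 2 higher (31.9%). Scaling by plain totals in place of TMM, edgeR's trimmed mean of ratios, raised the fold changes by 0.42, 0.70 and 0.62 in the 3 comparisons. It turned the sign of 7 of the 26 lower in immature cells (among them Slc39a1, Slc30a9, Slc39a5, Slc39a14, Slc30a5 and Slc26a3), of 3 in stem-like cells (Slc39a1, Slc30a7 and Slc30a5) and of 3 in cycling-like cells (Slc30a7, Slc4a2 and Slc30a9).

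Slc34a2 dropped furthest in immature cells, from a mean of 398 CPM in enterocyte-like to 45.2 CPM ± 22.1 (SD, n = 5) in immature enterocyte-like cells, 23.8 CPM ± 13.9 in cycling-like cells and 7.39 to 43.1 CPM over the libraries in stem-like cells. Its log2 fold change in immature cells was -3.10 ± 0.11 (SE; adjusted p = 7.87e-10), and its level there, 13.4 to 67.0 CPM, was under the T cell-like level. The log2 fold change there was -2.77 ± 0.22 for Slc13a2, -2.53 ± 0.23 for Slc13a1, -2.93 ± 0.16 for the manganese exporter Slc30a10, -1.80 ± 0.10 for Slc26a2 and -1.57 ± 0.07 for Slc26a6. By family, the test called lower 2 of 2 Slc13, 4 of 4 Slc26, 1 of 1 Slc34, 2 of 2 Slc41, 6 of 8 Slc30, 5 of 8 Slc39, 2 of 3 Slc4, 2 of 4 Slc9, 2 of 4 Slc12 and 0 of 2 Slc20 members (all genes 35.6%), though Slc26a3 turned sign under plain totals. The 4 called higher were 2 Slc39, 1 Slc9 and 1 Slc12 members. Slc26a3 differed from these in size, at -0.31 ± 0.08, with 71.5 CPM ± 11.5 in immature cells against 95.0 CPM ± 14.1. It then fell away to 14.8 CPM ± 7.57 in stem-like cells (-2.68 ± 0.18).

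Few carriers were higher in the less mature classes. In immature enterocyte-like cells these were Slc39a11 (0.65 ± 0.09), a zinc importer of inner membranes, Slc39a7 (0.59 ± 0.08), Slc9a8 (0.34 ± 0.12, adjusted p = 0.0207) and, under the detection limit, Slc12a8 (1.53 ± 0.36). Slc9a8 lost its call without sham 2, sham 3 or resection 1 (adjusted p of 0.0978, 0.0623 and 0.0602). In stem-like cells the zinc importer Slc39a10 was at 3.08, 7.74 and 10.2 CPM in sham and 3.17 and 5.33 CPM in resection, on 45 UMIs. Enterocyte-like cells had 0.313 to 1.58 CPM of it, on 28 UMIs (3.85 ± 0.42, edgeR adjusted p = 7.89e-08). The phosphate carrier Slc20a2 was at 7.26 to 12.3 CPM in stem-like cells against 3.77 to 6.61 CPM (1.16 ± 0.24). Slc39a8, which imports zinc and manganese, was at 3.28 to 7.86 CPM in cycling-like cells against 0.215 to 1.04 CPM (3.16 ± 0.31). T cell-like droplets reached 5.05 CPM for Slc39a10, so its stem-like values overlapped with that level. They reached 5.05 CPM for Slc20a2 and 0 CPM for Slc39a8, without overlap. Slc9a8 was higher in cycling-like cells too (0.41 ± 0.13). All but Slc39a11, Slc39a7 and Slc9a8 were below the detection limit and were picked out with their values in view.

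Slc12a8 was higher in both secretory classes than in enterocyte-like cells, and Slc41a1, Slc39a8 and Slc39a10 were higher in Paneth-like cells, while the counts of carriers higher were below the share of all genes in goblet-like and near it in Paneth-like cells. In goblet-like cells 4 of 37 carriers were higher and 16 lower than in enterocyte-like cells (all genes 21% and 23.7%, 44.7% together; medians -0.34 and -0.02), with 4 higher (13.5%) and 21 lower (34.1%) in each library. In Paneth-like cells 11 of 41 were higher and 16 lower (24% and 24.3%, 48.3% together; medians -0.20 and -0.00), with 7 higher (16%) and 19 lower (35.9%) in each library. The scaling mattered more in Paneth-like cells. Plain totals shifted all fold changes there by -1.92 and turned 6 of the 11 negative (Slc9a8, Slc39a1, Slc30a7, Slc30a2, Slc41a2 and Slc39a7), while no sign turned in goblet-like cells, where the shift was 0.35. Paneth-like cells also had more UMIs, with medians per library of 5877 to 19452 against 4109 to 5854 in enterocyte-like cells, and T cell markers summed to 78.9 to 709 CPM in them against 15.2 to 64.1 CPM. The part of doublets in the Paneth-like values was not tested.

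Slc12a8, of the cation-chloride cotransporter family, was high in both secretory classes. It was at 23.8, 29.3 and 39.8 CPM in the goblet-like cells of the sham libraries and 32.5 and 29.3 CPM in those of resection, and at 53.1, 36.6, 41.3, 59.8 and 24.2 CPM in Paneth-like cells of the same 5 libraries. Enterocyte-like cells had 0.679 to 1.58 CPM and T cell-like droplets 0 to 8.98 CPM, so no secretory library overlapped with these on the TMM scale. Whether Paneth-like and T cell-like values overlap under plain totals, which shifted Paneth-like fold changes by -1.92, was not tested. The log2 fold change was 5.41 ± 0.27 in goblet-like (adjusted p = 4.86e-14) and 5.80 ± 0.27 in Paneth-like cells (adjusted p = 1.39e-18).

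On the TMM scale Slc41a1, a magnesium transporter, was high in Paneth-like cells alone among the classes measured. It was at 40.0, 40.5 and 27.6 CPM in sham and 47.4 and 14.2 CPM in resection, on 137 UMIs. All other epithelial classes were at 5.33 CPM or below in every library, and T cell-like droplets reached 10.4 CPM, on the TMM scale still under the lowest Paneth-like value (log2 fold change over enterocyte-like cells 7.06 ± 0.33, adjusted p = 1.25e-18, 15 enterocyte-like UMIs). Plain totals shifted Paneth-like fold changes by -1.92. The Slc41a1 levels of the other classes and of T cell-like droplets were not compared with Paneth-like levels on that scale. Slc39a8 was at 10.5 to 40.6 CPM in Paneth-like cells (5.78 ± 0.34) and Slc39a10 at 10.5 to 16.9 CPM (4.82 ± 0.42). These 4 genes were under the detection limit over all cells and were chosen after their values were seen.

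Of the well-detected carriers in Paneth-like cells, Slc39a11 was at 73.9, 48.4 and 86.1 CPM in sham and 81.2 and 22.8 CPM in resection, against 14.7 to 21.2 CPM in enterocyte-like cells (2.03 ± 0.19, adjusted p = 9.11e-11). Its sign held under plain totals, but their shift of -1.92 took away nearly all of this difference. Slc39a7 (1.77 ± 0.14), the Golgi zinc loader Slc30a7 (1.01 ± 0.18) and the vesicle loader Slc30a2 (0.86 ± 0.15) were higher with TMM and negative under plain totals. In goblet-like cells Slc39a11 (0.94 ± 0.18), Slc39a7 (0.70 ± 0.13) and Slc12a9 (1.23 ± 0.29) were higher, at 19.5 to 33.2, 27.3 to 68.3 and 5.85 to 14.6 CPM. Slc12a9 lies below the detection limit, and it and Slc30a2 were picked out with their values in view. Slc39a7 reached 70.1 CPM in the T cell-like droplets of resection 1, so its goblet-like range overlapped with that level.

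**Figure D2:**
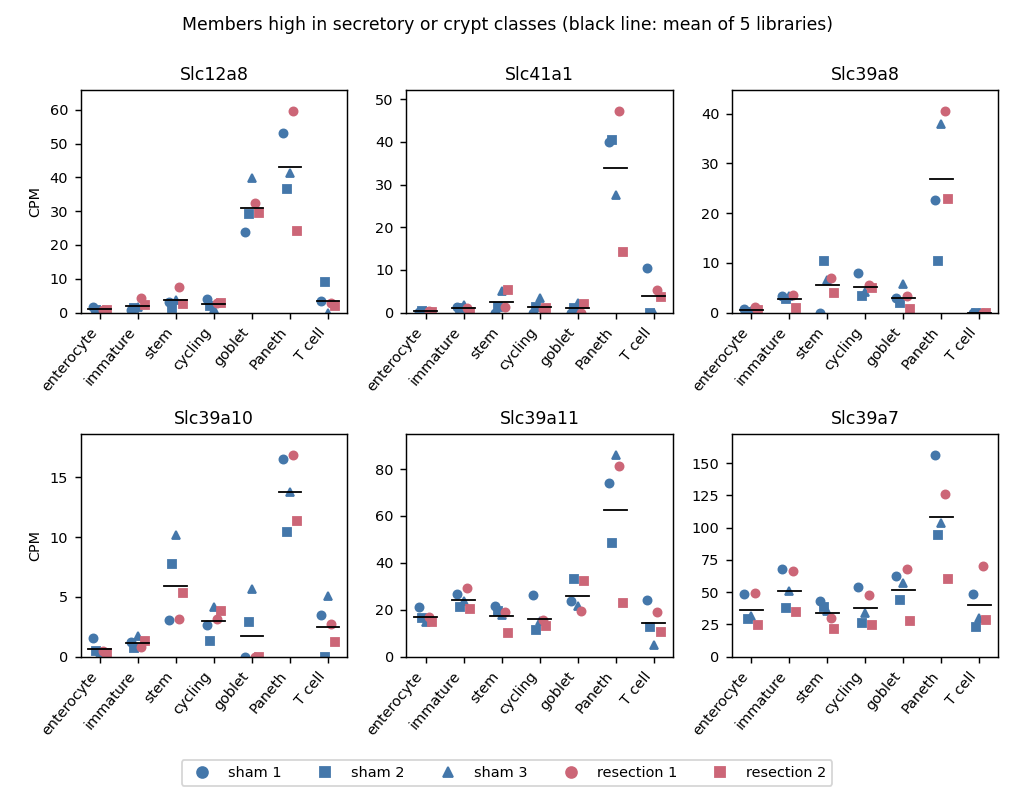
CPM (vertical axis, linear from 0) of 6 carriers by cell class, 1 point per library, blue for sham and red for resection, with the mean of 5 libraries as a black line. Slc12a8 is high in goblet-like and Paneth-like cells and Slc41a1 in Paneth-like cells; the Paneth-like excess of Slc39a7 turned negative when totals were not TMM-scaled.

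Within enterocyte-like cells, Slc34a2, Slc39a4 and Slc13a2 rose with maturity, while Slc26a3 fell. Each library's enterocyte-like cells were cut into terciles, 3 bins of equal cell number, by a score of villus tip genes (such as Ada, Nt5e and Enpp3) minus villus base genes (such as Gsdmc4, Reg3b and Ccl25), none of them a carrier described here. Between upper and lower tercile 12 of 37 carriers tested rose and 5 fell (all genes tested: 18.6% and 18.8%, 37.4% together), with a median log2 fold change of 0.16 against 0.01 over all genes. In all 5 libraries alike, 16 were higher (19.1% of all genes) and 7 lower (19.3%).

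Slc34a2 was at 239, 226, 98.2, 362 and 373 CPM in the lower tercile of sham 1 to 3 and resection 1 and 2, and at 518, 517, 268, 667 and 844 CPM in their upper tercile. It rose in each library, by 1.16 ± 0.09 (SE; edgeR adjusted p = 2.93e-07). Slc39a4 went from 82.8, 108, 58.1, 79.5 and 82.2 CPM to 109, 198, 101, 167 and 252 CPM, a rise in every library of 1.01 ± 0.13 (adjusted p = 3.45e-05). For Slc13a2 the lower terciles were at 205, 186, 96.1, 306 and 135 CPM and the upper terciles at 323, 297, 205, 453 and 222 CPM (0.74 ± 0.09). Slc4a7 rose by 0.65 ± 0.14, from 6.07 to 19.3 CPM up to 9.44 to 30.4 CPM over the libraries. Below the detection limit, Slc30a10 rose by 1.20 ± 0.14 (adjusted p = 1.53e-05), a gene picked out with its values in view. The other 7 that rose, by 0.27 to 0.49, included Slc26a2, Slc41a2, Slc30a2, Slc9a2, Slc39a9 and Slc26a6. Slc39a9 rose mainly in resection 1 and 2 (0.70 and 0.66), against 0.057, -0.14 and 0.11 in sham 1 to 3. Slc9a2 was slightly lower in the upper tercile of sham 1 (-0.031).

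The 5 that fell came from the Slc9, Slc26 and Slc39 families, which also held members that rose. Slc26a3 went from 107, 140, 93.2, 116 and 112 CPM in the lower terciles to 76.9, 86.4, 78.6, 59.5 and 54.7 CPM in the upper terciles, lower in each library (-0.70 ± 0.11, adjusted p = 0.000166). Slc26a6 of the same family rose (0.27 ± 0.08). The intracellular zinc importers Slc39a11 and Slc39a7 fell by 0.66 ± 0.12 and by 0.48 ± 0.10, Slc9a8 fell by 0.58 ± 0.13 and the basolateral zinc importer Slc39a5 fell by 0.46 ± 0.11 (adjusted p = 0.00387). Slc39a11, Slc39a7 and Slc9a8 were also the well-detected carriers that were higher in immature enterocyte-like cells. The score's villus base genes include Gsdmc4, which leads that class, and Reg3b, on its marker list, so these results are not separate. The phosphate carrier Slc20a1 did not pass (-0.13 ± 0.19) and neither did Slc13a1 (0.03 ± 0.11). Slc13a1 was lower in the upper tercile of sham 1, sham 2 and resection 2 and higher in that of sham 3 and resection 1. With the score built from villus tip genes alone, 6 rose and 3 fell (share of all genes not given).

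**Figure D3:**
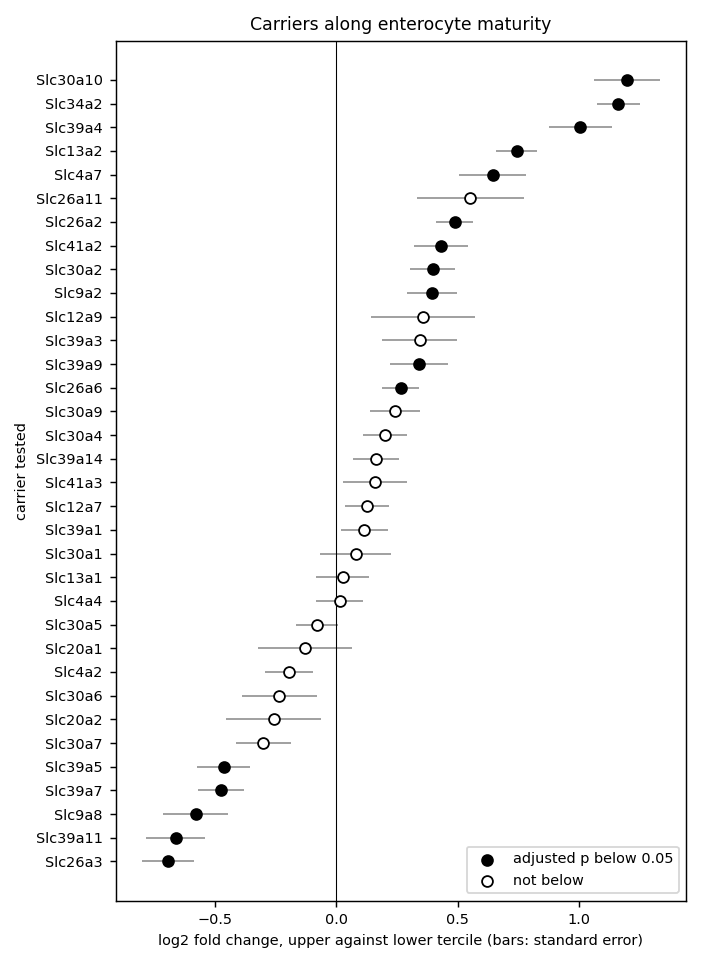
Log2 fold change between the upper and lower tercile of enterocyte-like cells by maturity (horizontal axis) for 34 of the 37 carriers tested (rows), with standard errors as bars; filled points passed an adjusted p of 0.05. Slc30a10, Slc34a2 and Slc39a4 lie farthest to the right and Slc26a3 and Slc39a11 farthest to the left.

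Genes that work with the carriers were counted along the same axis from 4 lists. Of all genes tested, 18.6% rose and 18.8% fell. Of scaffolds and regulators of the exchangers, 7 of 13 tested rose and none fell, among them Sgk1 (1.75 ± 0.14), a kinase that raises sodium uptake, and Pdzk1 (1.28 ± 0.12), a scaffold that binds brush-border carriers. Of the pump and channels, 5 of 10 rose and 2 fell, with Clca4a and Clca4b at 3.36 ± 0.20 and 1.42 ± 0.10. None of 4 carbonic anhydrases rose and 2 fell, Car4 (-1.62 ± 0.21) and Car9 (-1.25 ± 0.25), enzymes that interconvert carbon dioxide and bicarbonate. In the metal and phosphate list 2 of 16 rose and 4 fell, counts near the share of all genes and not read as a trait of the list. The copper importer Slc31a1 rose by 0.73 ± 0.10 and the metallothionein Mt2, a store of zinc, fell by 1.12 ± 0.10.

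Resection was then compared with sham within each class. By edgeR's test no carrier passed in any of the 7 comparisons, with 39 carriers tested in enterocyte-like cells (0% of all 10353 genes passed), 46 over all epithelial (0%), 39 in immature enterocyte-like (0%), 33 in Paneth-like (0.0159%), 35 in cycling-like (0%), 30 in stem-like (0%) and 30 in goblet-like cells (0%). DESeq2 also called none of them. At an unadjusted p below 0.05 there was 1 carrier each in enterocyte-like (Slc4a5), immature enterocyte-like (Slc12a8) and Paneth-like cells (Slc9a2) and none in the other 4. The share of all genes at that p is not given, so these counts are not read as a result. The median log2 fold change of the carriers in enterocyte-like cells was 0.18, against -0.02 over all genes. It was -0.04 without resection 1, 0.07 without sham 3, 0.35 without sham 1 and 0.33 without resection 2.

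Values that did not overlap between groups were counted as a description. In enterocyte-like cells 7 of 39 carriers were higher in both resection libraries than in every sham library (12% of all genes) and 2 were lower (7.53%). The 7 included Slc34a2, Slc41a2, Slc30a10, Slc30a9, Slc4a5 and Slc41a3, and the 2 were Slc39a5 and Slc30a1. In immature enterocyte-like cells there were 5 higher (7.82%) and 1 lower (3.95%), and in all epithelial cells 5 (8.96%) and 1 (5.55%). Stem-like cells had 3 (7.63%) and 1 (4.81%), cycling-like cells 0 (6.33%) and 1 (3.94%), goblet-like cells 4 (10.1%) and 1 (6.11%), and Paneth-like cells, whose clusters were mostly of 1 library each as named above, 1 (6.16%) and 0 (7.01%).

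Slc34a2 gave the largest difference among the well-detected carriers in enterocyte-like cells, 0.86 ± 0.39 (SE; edgeR adjusted p = 0.937), from 297 CPM ± 109 (SD, n = 3) in sham to 550 CPM ± 43.4 (SD, n = 2) in resection. It was also above every sham library in immature enterocyte-like cells (52.6, 32.2 and 13.4 CPM in sham; 60.7 and 67.0 CPM in resection; 0.96 ± 0.48), in goblet-like cells (203, 174 and 36.4 CPM; 237 and 287 CPM; 0.94 ± 0.54) and over all epithelial cells (0.89 ± 0.43). All 5 immature values and the 3 sham goblet-like values were under the mean T cell-like level of 211 CPM, and T cell-like droplets themselves held 253, 136 and 98.4 CPM in sham and 226 and 340 CPM in resection, with overlap. Markers of maturity moved the same way: the summed villus tip genes of enterocyte-like cells were at 448 to 712 CPM in sham and 821 to 876 CPM in resection. All 12 enterocyte markers together were at 22106 to 59399 CPM in sham and 60067 to 101369 CPM in resection. Their part in the Slc34a2 difference was not tested.

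Slc41a2 was at 20.1, 24.6 and 18.1 CPM in sham and 33.4 and 27.0 CPM in resection, a difference of 0.51 ± 0.24 (adjusted p = 0.982). Slc4a7 was at 12.6, 12.3 and 7.82 CPM in sham and 25.6 and 10.9 CPM in resection (0.73 ± 0.41), and without resection 1 the difference was -0.024. Slc39a5 and Slc30a1 were lower without passing, at -0.34 ± 0.25 and -0.36 ± 0.26. Slc4a5, a bicarbonate cotransporter below the detection limit, was at 0.901, 1.83 and 0.644 CPM in sham and 2.50 and 2.92 CPM in resection (1.23 ± 0.49). It was picked out with its values in view. Resection 1 was set against sham 1, and resection 2 against the mean of sham 2 and sham 3, since sham 1 and resection 1 shared a higher mitochondrial share of counts (medians of 13.7% and 11.7%, against 7.24% to 9.19%). Of the 39 carriers 18 were then higher in both contrasts, 6 lower in both and 15 opposite. No share of all genes is given beside these counts, so they are not read as a trait of the carriers. For Slc34a2 the contrasts were 0.49 and 1.16, for Slc41a2 0.73 and 0.34, for Slc13a2 0.53 and -0.05 and for Slc13a1 0.83 and -1.01.

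**Figure D4:**
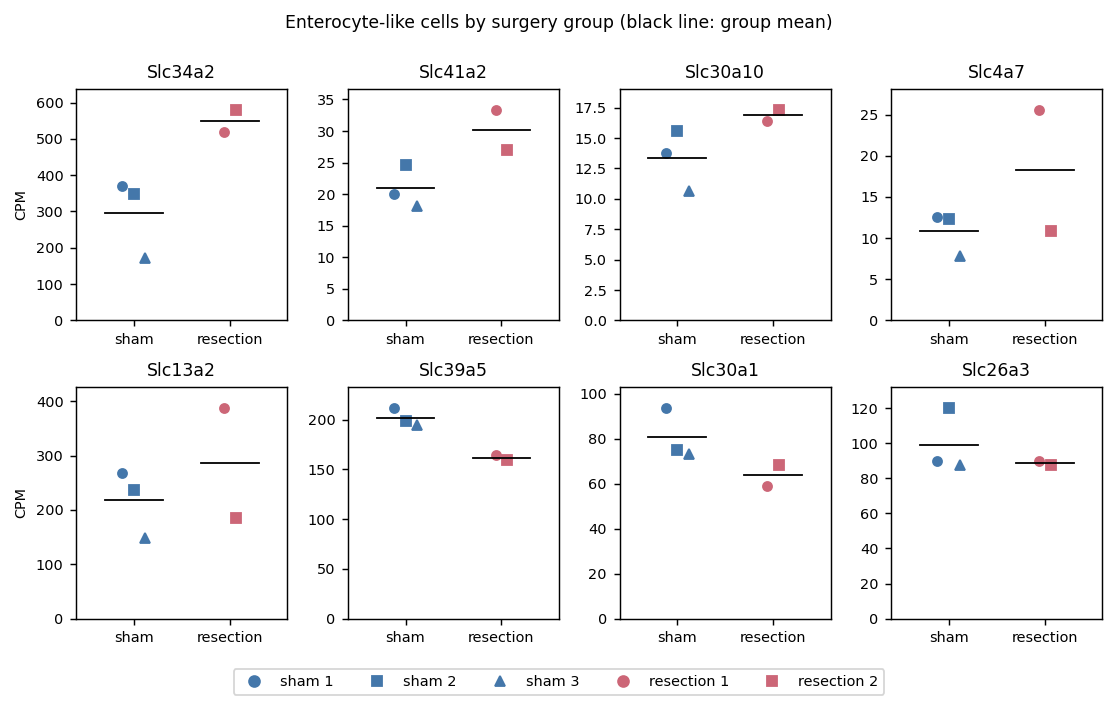
CPM in enterocyte-like cells (vertical axes, linear from 0) for 8 carriers in sham and resection libraries, 1 point per library with the group mean as a black line. Slc34a2, Slc41a2 and Slc30a10 are above every sham library in both resection libraries and Slc39a5 and Slc30a1 below; no carrier passed the test.

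Partner genes in enterocyte-like cells gave no call either, in 14 scaffolds and regulators, 15 pump and channel genes, 16 metal and phosphate genes and 5 carbonic anhydrases tested with edgeR. At an unadjusted p below 0.05 there were 2, 0, 1 and 3 of them, again without a share of all genes beside them. Car4, a carbonic anhydrase of the brush border, was at 154, 224 and 297 CPM in sham and 82.3 and 78.8 CPM in resection, without overlap (-1.50 ± 0.34, edgeR adjusted p = 0.427; DESeq2 adjusted p = 0.00653). The iron exporter Slc40a1 was at -1.34 ± 0.35 and Car12 at -0.98 ± 0.38. Pdzk1 was at 0.97 ± 0.32, the kinase Prkg2 at 0.79 ± 0.28, Clca4b at 0.68 ± 0.32, the chloride channel Cftr at 0.53 ± 0.25 and Cnnm2, of a magnesium transport family, at 1.20 ± 0.57.

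The change of Slc39a5, Slc30a1, Slc39a9 and Slc39a4 with maturity differed between resection and sham. The interaction, which is the log2 difference between upper and lower tercile in resection minus that in sham, passed for 4 of 37 carriers, 2 higher and 2 lower (all genes tested: 0.511% higher, 2.59% lower, 3.1% in either direction). Of these, 3 were among 8 Slc39 carriers tested and 1 among 8 Slc30 carriers. Slc39a5 was at 217, 212 and 204 CPM in the lower tercile of sham 1 to 3 and 208 and 193 CPM in that of resection. In the upper tercile it was at 190, 171 and 186 CPM in sham but 113 and 111 CPM in resection. The groups overlapped in the lower tercile and were apart in the upper (-0.63 ± 0.14, edgeR adjusted p = 0.00695).

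Slc30a1 went from 84.8, 61.8 and 51.2 CPM to 90.9, 75.3 and 89.3 CPM in sham, and from 69.6 and 67.3 CPM to 45.4 and 61.1 CPM in resection (-0.79 ± 0.19, adjusted p = 0.0143). Its upper tercile was the higher in every sham library and the lower in both resection libraries. Slc39a9, a zinc importer of the Golgi and surface, went from 47.7, 48.6 and 51.0 CPM to 49.6, 44.1 and 55.1 CPM in sham and from 55.0 and 41.9 CPM to 89.0 and 66.2 CPM in resection (0.66 ± 0.17, adjusted p = 0.0265). Slc39a4, whose per-tercile values are given above, had an interaction of 0.62 ± 0.18 (adjusted p = 0.0470). Its upper tercile in sham 2, at 198 CPM, lay above that of resection 1, so the groups overlapped there. Slc26a3 did not pass (-0.53, adjusted p = 0.0757). Partner genes that passed included Car4 (-1.42 ± 0.19), Cftr (-1.23 ± 0.23) and Car9 (-1.55 ± 0.35) lower and Clca4a (1.13 ± 0.26) higher.

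The span of maturity itself differed between groups. Villus tip genes summed to 708 to 1176 CPM in the upper tercile of sham and 1393 to 1683 CPM in that of resection, and to 256 to 376 and 398 to 425 CPM in the lower tercile. Villus base genes summed to 36100 to 78767 CPM in the upper tercile of sham and 32785 to 33192 CPM in that of resection. The part of this in the 4 interactions was not tested. Counts for other runs follow, without a share of all genes beside them. The count of 4 was 2 without sham 1, 3 without sham 2, 0 without sham 3, 1 without resection 1, 2 without resection 2, 1 with DESeq2, and 0 with a score of villus tip genes alone.

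**Figure D5:**
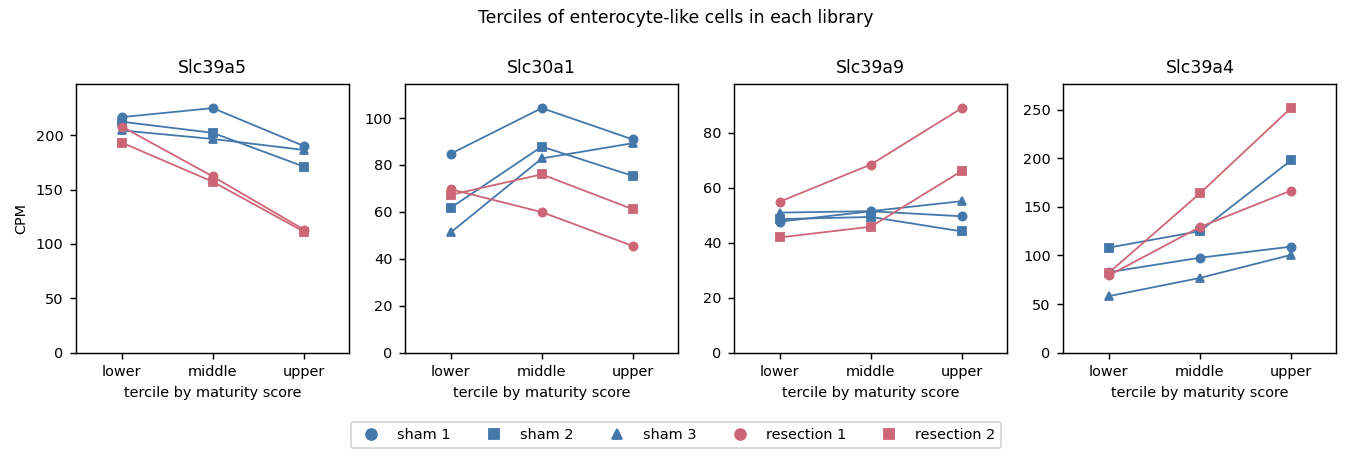
CPM (vertical axes, linear from 0) of the 4 carriers past the interaction test in the lower, middle and upper tercile of enterocyte-like cells by maturity, with a line per library, blue for sham and red for resection. In the upper tercile both resection lines lie below all sham lines for Slc39a5 and Slc30a1 and above them for Slc39a9.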

How the data were processed

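Gene by cell tables of UMI counts, whole numbers deposited by the authors, were used as they stand. The submitters' processing notes name Cell Ranger, with its version given as uncertain, and mm10. The labels give no further filter. Cells under 500 genes or above 20% mitochondrial counts were dropped, and doublets were removed by their share of artificial doublets among neighbours, at 0.8% per 1000 cells (720 cells, 3.80%). Cells were clustered on 2000 variable genes, 30 principal components and 20 neighbours (leidenalg 0.10.2, resolution 1), and clusters were named from marker lists. Scaling genes within each library was planned as the alternative and scaling over all libraries as the first choice; the order was swapped because the latter put sham 1 and resection 1 into clusters of their own. This was decided from cluster composition, before the carriers were tested.

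Counts were summed per library and class (at least 20 cells) and tested with edgeR 4.0.16 in R 4.3.3, by the quasi-likelihood test with TMM scaling and Benjamini-Hochberg adjustment over all genes passing edgeR's filter. Class and maturity contrasts kept the library as a block. DESeq2 1.42.0 was an alternative, as were no filter, each library left out, no doublet removal, other clusterings, 2 bins of the maturity score in place of 3 and tip genes alone. CPM is scaled so that enterocyte-like sums keep their own totals on average. Counting intervals and floors cover counting error only. On simulated counts for surgery in enterocyte-like cells (10250 genes), 79 of 99 genes with a log2 change of 1 and 93 of 96 with 2 were recovered. The simulation gave all libraries the same gene proportions and a fixed spread that was not estimated from these libraries. It checks the fitting and does not measure how often the surgery test would find such changes here.

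The carriers, marker lists and partner lists were chosen with earlier results of these data known. By rule, values are given for the up to 3 best-detected carriers of each family, the 5 well-detected ones with the lowest p for surgery in enterocyte-like cells, the 4 that changed most in each direction with maturity, the up to 3 most raised well-detected ones in secretory and crypt classes, and the 2 partner genes of each list with the lowest p. Any other is said to have been picked out with its values in view. Clustering with genes scaled over all libraries was added as an alternative after seeing the data. Some carriers and partner genes enter the counts and are not reported by name here.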

Additional observations from a re-analysis of the deposited data

Results flagged for a closer look

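In 4 carriers the difference between the upper and lower tercile of enterocyte-like cells by maturity differed between resection and sham, by edgeR's interaction test with Benjamini-Hochberg adjustment over all genes. The log2 interaction, resection minus sham, was -0.63 for Slc39a5 (adjusted p = 0.00695), -0.79 for Slc30a1 (adjusted p = 0.0143), 0.66 for Slc39a9 (adjusted p = 0.0265) and 0.62 for Slc39a4 (adjusted p = 0.0470).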

How the results depend on the processing

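No surgery comparison other than that in immature enterocyte-like cells gained a called carrier under any alternative run. There the replicate block, which treats equal replicate numbers as pairs, gave 3 calls: Slc34a2 at 0.62 (edgeR adjusted p = 0.0489), Slc13a1 at -0.79 (adjusted p = 0.00670) and Slc13a2 at -0.78 (adjusted p = 0.00378). Only 2 numbers are shared, so the libraries share a number and are not shown to be pairs. The surgery difference of Slc4a7 in enterocyte-like cells ran from -0.024 without resection 1, a reversal, to 1.23 without resection 2. The 17 carriers called along maturity became 9 with villus tip genes only. The 4 interaction calls became 1 with DESeq2, 2 with 2 bins of the score and 0 with villus tip genes only, and 0 to 3 with 1 library left out. No share of all genes called is given beside these counts, so they are not read as particular to the carriers. The causes were not tested. Car4 in enterocyte-like cells passed under DESeq2 (adjusted p = 0.00653), without the filter (0.0174) and with the block (0.00191), and Slc40a1 under the latter 2 (0.0251 and 0.0393). Carriers under the detection limit rest on few UMIs.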
